A study of Mus musculus with 6 samples.

Results

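The connexin and pannexin genes reported here are 9 named genes, 7 connexins (Gja1, Gja4, Gjb1, Gjb2, Gjb6, Gjc1 and Gjd2) and 2 pannexins (Panx1 and Panx2), of 49568 gene names with a value. They were chosen by name, and all 9 were found. RNA was sequenced from the preBötzinger complex (preBötC), the brainstem site that generates the inspiratory rhythm, of 6 mice at postnatal day 2. All mice were Dbx1CreERT2; Rosa26tdTomato offspring of dams given tamoxifen during gestation, in which cells that descend from Dbx1-expressing progenitors carry red fluorescence. Each sample pooled 15 neurons of 1 mouse, taken by suction pipette, with 3 samples of fluorescent neurons (Dbx1 samples) and 3 of neurons without fluorescence (non-Dbx1 samples). Because the Cre is tamoxifen-inducible and the non-Dbx1 neurons were chosen by eye, Dbx1-derived neurons that escaped labelling cannot be told apart from other non-fluorescent neurons. Expression is given as RPKM (reads scaled to exon length in kilobases and to the number of reads assigned to genes), as deposited for each sample.

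Connexins form gap junctions. Connexin hexamers in the membranes of 2 adjoining cells dock to make a channel that passes current and small molecules, and between neurons such a channel is an electrical synapse. In the brain the family is divided by cell type. Cx36 (Gjd2) and Cx45 (Gjc1) are known from neurons, Cx43, Cx30 and Cx26 (Gja1, Gjb6 and Gjb2) from astrocytes, with Cx26 also in the meninges, Cx32 (Gjb1) from oligodendrocytes and Cx37 (Gja4) from the vessel wall. Pannexins resemble connexins in membrane topology but mostly form channels of a single membrane, through which ATP can leave the cell. The study described preBötC neurons as communicating in part through gap junctions.

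The reads assigned to genes numbered 6464675 to 9432958 a sample, worked out from the smallest differences among the RPKM values. All 6 neuronal markers had reads in every sample, with a summed RPKM between 1029 and 1733. Samples differed in RNA that marks other cells. Non-Dbx1 replicate 1 had the highest summed RPKM of 10 oligodendrocyte-lineage markers, at 595 against 32.6 to 81.8 in the other samples, and the highest of 5 erythroid markers, at 14058 against 90.3 to 1198. Non-Dbx1 replicate 2 had the highest summed RPKM of 8 endothelial and pericyte markers, at 72.2 against 0.595 to 5.72. The difference between the groups, L2FC, is the Dbx1 minus the non-Dbx1 mean of log2(RPKM + 1). It was tested with limma over the 17614 genes that had reads in 3 or more samples and adjusted to a false discovery rate (FDR) over all of them, with a threshold of 0.1.

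Of the 9 genes, 8 passed that filter and 0 of the 8 differed between the groups at an FDR of 0.1 by limma, where 0.00568% of all tested genes did. The lowest FDR was 0.912. In samples pooled from 15 neurons, fewer neurons with a transcript and less of it per neuron cannot be told apart. At an unadjusted p of 0.05, limma passed 2 of the 8, Gja4 (higher in the Dbx1 samples) and Gjb1 (higher in the non-Dbx1 samples), where 5.2% of all tested genes passed, 2.73% higher in the Dbx1 and 2.48% higher in the non-Dbx1 samples. Fitted with voom on the recovered reads, 6 of the genes could be tested, of which 0 reached an FDR of 0.1 and 1 had an unadjusted p under 0.05, against 5.33% of all genes tested that way. The groups did not overlap for 2 of the 8, Panx1 and Gjb1, both higher in the non-Dbx1 samples, where 10.6% of all tested genes had groups that did not overlap, 5.24% with the non-Dbx1 and 5.35% with the Dbx1 samples higher. Gjb1 entered the test only through the non-Dbx1 samples, since it had no reads in any Dbx1 sample. Its groups therefore could not overlap and its L2FC had to be below 0. L2FC was below 0 for 7 of the 8 genes, with a median of −0.38 that stays the same with Gjb1 at its bound. Of all tested genes, 49.2% had an L2FC below 0, and their median was 0.0089. Leaving out non-Dbx1 replicate 1 turned L2FC above 0 for Gja1 (0.43), Gjd2 (0.32) and Gjc1 (0.061). Reads were present in all 6 samples for 5 of the 9 genes (Panx1, Gjd2, Gja1, Gja4 and Panx2), as for 44% of the 27067 names with reads in any.

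**Figure D1:**
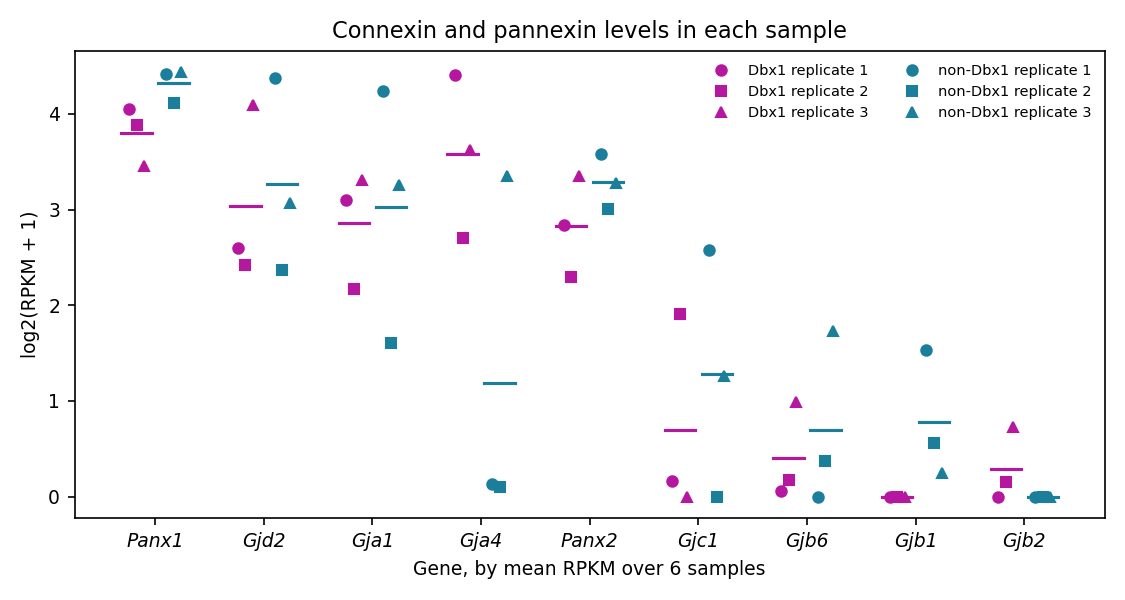
Level of each of the 9 genes in each of the 6 samples, as log2(RPKM + 1). Points are samples, with 1 symbol per replicate number, and bars are the means of 3 samples. Panx1 stayed within a narrow band in all samples, Gja4 was near 0 in 2 non-Dbx1 samples only, and Gjb1 was at 0 in all 3 Dbx1 samples.

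Gjd2 encodes Cx36, the main connexin of electrical synapses between mammalian neurons, and is located at 114009601 to 114013619 on chromosome 2 (GRCm38, as for all positions here). Its RPKM was 5.07, 4.34 and 16.1 in Dbx1 replicates 1 to 3 against 19.8, 4.18 and 7.36 in non-Dbx1 replicates 1 to 3, from 94 to 368 reads per sample. It was thus present in every sample, and 1 sample of each group stood well above the other two. The means were 8.51 ± 6.60 (SD, n = 3) for Dbx1 and 10.4 ± 8.24 for non-Dbx1. The difference was smaller than its standard error, with an L2FC of −0.23 (standard error 0.640, 95% interval −1.70 to 1.23, limma FDR = 0.983). Its sign changed to 0.32 without non-Dbx1 replicate 1 and to 0.078 without Dbx1 replicate 2. Within the groups, Gjd2 varied more than 80.8% of the 4645 tested genes with a mean RPKM within 2-fold of its own.

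Gjc1 encodes Cx45, which also couples neurons, often beside Cx36. It lies on chromosome 11 from 102799579 to 102819700. RPKM of Gjc1 was 0.12, 2.76 and 0 in the Dbx1 samples against 4.98, 0 and 1.40 in the non-Dbx1 samples. The reads were 6, 131 and 0 against 203, 0 and 83, so each group held a sample with none, where 3 reads would equal 0.0736 RPKM or less. By limma its L2FC was −0.59 (standard error 0.771, FDR = 0.960), and leaving out non-Dbx1 replicate 1 turned it to 0.061. Gjd2 was above Gjc1 in all 6 samples. A sample with a high value of one was not always high for the other, since Dbx1 replicate 3 had the second highest Gjd2 of all samples and no reads of Gjc1.

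Gja1 encodes Cx43, the most abundant connexin of astrocytes, and lies on chromosome 10 from 56377330 to 56402513. RPKM of Gja1 was 7.57, 3.51 and 8.93 in the Dbx1 samples against 17.8, 2.03 and 8.54 in the non-Dbx1 samples. Both the highest and the lowest values belonged to non-Dbx1 samples, and the groups overlapped throughout. The L2FC was −0.17 (standard error 0.684, 95% interval −1.73 to 1.39, limma FDR = 0.989). It changed sign without non-Dbx1 replicate 1, to 0.43, and without Dbx1 replicate 2, to 0.18.

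Of 7 astrocyte markers, 2 (Aldh1l1 and S100b) were highest in non-Dbx1 replicate 1, where Gja1 was highest, 2 in non-Dbx1 replicate 3, 2 in Dbx1 replicate 3 and 1 in Dbx1 replicate 2. Aldh1l1 was 14.4 RPKM in that sample against 2.69 to 6.69 in the others, and S100b was 44.2 against 13.3 to 33.0. The water channel Aqp4 was at its lowest there, 0.0304 against 1.81 to 16.4. The summed RPKM of the 7 markers ranged from 260 to 289 in the Dbx1 samples, while it ranged from 283 to 289 in the non-Dbx1 samples, but most of that sum was Aldoc, a glycolytic enzyme, at 199 to 239 RPKM. Without Aldoc the sum was 30.3, 49.4 and 61.1 in Dbx1 against 71.2, 58.9 and 52.2 in non-Dbx1 replicates 1 to 3. It was highest in the sample with the most Gja1, where S100b alone made up 44.2 of it. The sample with the least Gja1, non-Dbx1 replicate 2, had 58.9. Leaving Aldoc out was chosen after the values were seen. The part of astrocyte RNA in the Gja1 values was not tested.

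Gjb6 and Gjb2 encode Cx30 and Cx26 and are neighbours on the minus strand of chromosome 14, Gjb2 from 57098600 to 57104702 and Gjb6 from 57123303 to 57133611, with 18600 bases between them. RPKM of Gjb6 was 0.0394, 0.12 and 0.99 in the Dbx1 samples against 0, 0.29 and 2.32 in the non-Dbx1 samples. These values rest on 0 to 70 reads, and replicate 3 was the highest of each group. The L2FC of Gjb6 was −0.30 (standard error 0.488, limma FDR = 0.969) and turned to 0.22 without non-Dbx1 replicate 3. Gjb2 was the lowest of the 9 genes. It had 2 reads in Dbx1 replicate 2 and 11 in Dbx1 replicate 3, or 0.11 and 0.66 RPKM, and none in the other 4 samples, where 3 reads would equal 0.193 RPKM or less. With reads in only 2 samples, Gjb2 did not pass the filter and was not tested with limma (exact permutation test, two-sided, p = 0.40). In the Dbx1 samples both genes were highest in replicate 3, where 2 of the 7 astrocyte markers (Gfap and Slc1a2) were at their highest and 2 (Aldh1l1 and Aldoc) at their lowest. In non-Dbx1 replicate 3, with the most Gjb6, Aqp4 and Slc1a3 were at their highest, Slc1a2 was at its lowest and Gfap was 0.0217 RPKM. The summed RPKM of 4 meningeal fibroblast markers was 7.69 and 1.92 in the 2 samples with Gjb2 and 1.17 to 11.7 in the others. The part of astrocyte or meningeal RNA in these values was not tested.

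Gjb1 encodes Cx32, a myelin connexin of oligodendrocytes, and lies on the X chromosome from 101376378 to 101385629. RPKM of Gjb1 was 0 in all 3 Dbx1 samples. It was 1.90, 0.479 and 0.186 in non-Dbx1 replicates 1 to 3. All non-Dbx1 values were above all Dbx1 values (p = 0.10 by exact permutation, which is as low as 3 samples against 3 can reach). Without Dbx1 reads, Gjb1 could pass the filter only in this way, so the separation and its tests lend no support to a difference. The reads behind the non-Dbx1 values numbered only 21, 7 and 3. In the Dbx1 samples 3 reads would have given 0.221 to 0.253 RPKM, a floor for each library. The non-Dbx1 mean of 0.856 ± 0.918 (SD, n = 3) was 3.63-fold the mean of these floors. For counting error in the Dbx1 samples alone, this is a lower bound on the ratio of means. It leaves out the spread among the non-Dbx1 samples, so it does not bound the difference between the groups. That bound rests on non-Dbx1 replicate 1 and was 1.41-fold without it, and the value of non-Dbx1 replicate 3 lay below the floor. The limma L2FC was −0.78 (standard error 0.339, unadjusted p = 0.048, FDR = 0.912), with its sign fixed by the filter. With the Dbx1 samples at 0 this value depends on the pseudocount, and it was −2.79 with a pseudocount of 0.1.

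Of the 10 oligodendrocyte-lineage markers, 3 also lay higher in every non-Dbx1 than in every Dbx1 sample, where 5.24% of all tested genes did. Mbp (myelin basic protein) was 1.35, 1.87 and 3.45 RPKM in Dbx1 against 155, 4.52 and 9.10 in the non-Dbx1 samples. Cnp, a myelin-associated enzyme, was 6.50, 12.6 and 4.99 against 136, 26.8 and 22.3. The same number of markers had an unadjusted limma p under 0.05, where 5.2% of all tested genes did, and the lowest limma FDR of the list was 0.787. All 10 markers of the list had reads in at least 1 sample, and its summed RPKM was 32.6 to 78.5 in the Dbx1 samples against 73.4 to 595 in the non-Dbx1 samples. Non-Dbx1 replicate 1, with the most Gjb1, was also the sample in which 8 of the 10 markers were highest. The exceptions were Mog, highest in Dbx1 replicate 1 (0.905 against 0.514), and Olig1, highest in Dbx1 replicate 3 (63.9 against 62.4). It held 17.7 RPKM of Gjc3 (Cx29, another oligodendrocyte connexin), against 0 to 1.67 in the other samples. Of the 5 erythroid markers, 4 were likewise higher in every non-Dbx1 sample, against the same 5.24% of all tested genes. The part of RNA from these cells in the Gjb1 difference was not tested.

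Gja4 encodes Cx37, best known from the endothelium of arteries, and lies on chromosome 4 from 127311421 to 127314039. RPKM of Gja4 was 20.2, 5.52 and 11.3 in the Dbx1 samples against 0.0918, 0.0694 and 9.19 in the non-Dbx1 samples. The corresponding reads were 271, 70 and 133 against 1, 1 and 146. Gja4 was thus abundant in 4 samples and limited to a single read in the other 2, both non-Dbx1, and non-Dbx1 replicate 3 lay inside the range of the Dbx1 samples. The means were 12.4 ± 7.41 and 3.12 ± 5.26 RPKM (SD, n = 3), 3.97-fold higher in the Dbx1 samples. This was the largest L2FC of the 9 genes in size, 2.39 (standard error 0.929, 95% interval 0.27 to 4.51, unadjusted limma p = 0.032, FDR = 0.912), and the exact permutation test gave p = 0.20. Leaving out non-Dbx1 replicate 3 gave an L2FC of 3.47, and leaving out non-Dbx1 replicate 2 gave 1.84. Gja4 varied within the groups more than 92.6% of the 4998 tested genes of like level.

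The summed RPKM of the 8 endothelial and pericyte markers was 0.595 to 1.05 in the Dbx1 samples, which are 3 of the 4 samples with more than 1 read of Gja4, and 3.08 to 72.2 in the non-Dbx1 samples. Of the 8 markers, 4 were highest in non-Dbx1 replicate 2, which had 1 read of Gja4, among them the tight junction gene Cldn5 at 63.7 RPKM. The other 4 were highest in samples with more Gja4. Pecam1 was highest in Dbx1 replicate 2, at 0.507 RPKM, and Cdh5 in Dbx1 replicate 3, at 0.927. The pericyte genes Rgs5 and Pdgfrb were highest in non-Dbx1 replicate 3, at 2.08 and 0.96. In Dbx1 replicate 1, with the most Gja4, no marker was highest and none exceeded 0.271 RPKM. The part of vascular RNA in the Gja4 values was not tested.

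**Figure D2:**
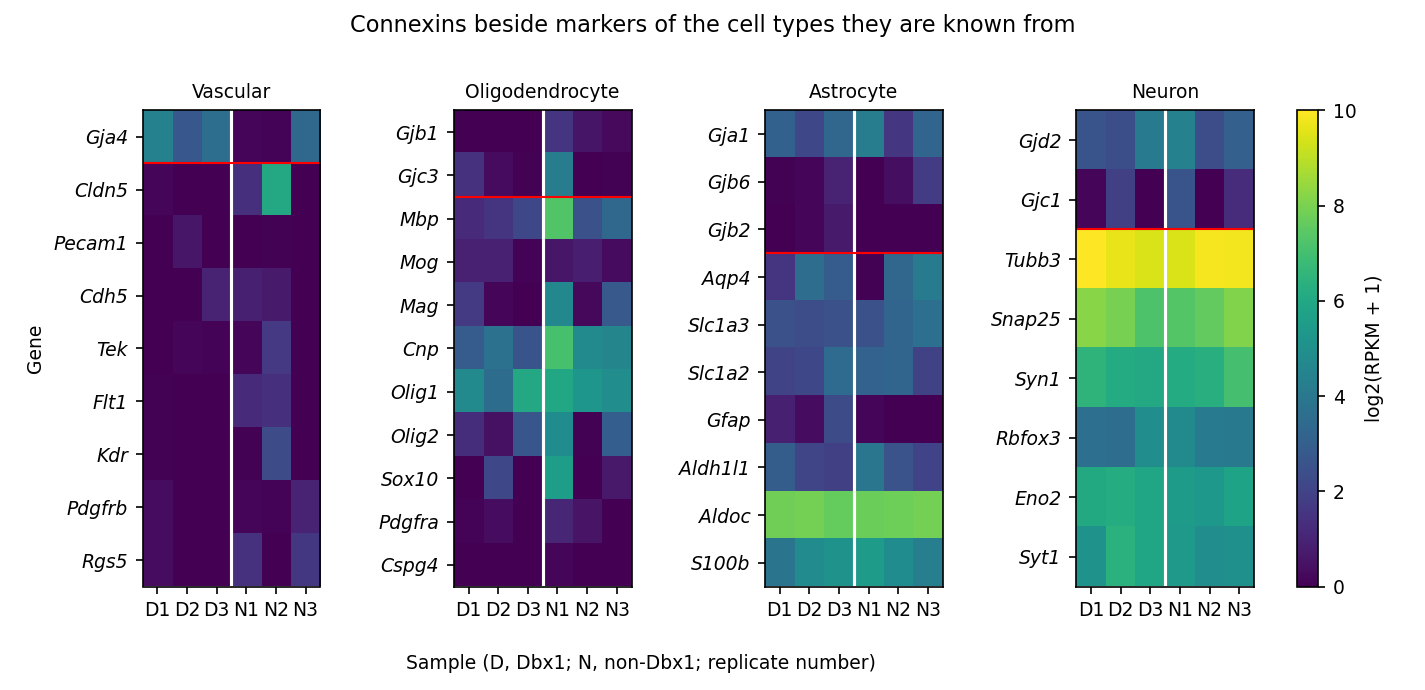
Connexins (above the red line of each panel) and markers of the cell type they are known from (below it), coloured by log2(RPKM + 1). Columns are the 3 Dbx1 (D) and 3 non-Dbx1 (N) samples. In the 3 Dbx1 columns Gja4 was high with a summed vascular RPKM of 0.595 to 1.05, and Gjb1 and Gjc3 were highest in N1, as were Mbp and Cnp, while neuronal markers were high in all columns.

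Panx1, the widely expressed pannexin that forms ATP-permeable channels, lies on chromosome 9 from 15002128 to 15045478. RPKM of Panx1 was 15.6, 13.8 and 9.95 in the Dbx1 samples against 20.3, 16.3 and 20.7 in the non-Dbx1 samples, on 537 to 1513 reads each. All 3 non-Dbx1 values lay above all 3 Dbx1 values (exact permutation test, p = 0.10), with means of 19.1 ± 2.40 and 13.1 ± 2.87 (SD, n = 3). The Dbx1 mean was 0.685 of the non-Dbx1 mean. The L2FC was −0.53 (standard error 0.296, 95% interval −1.20 to 0.15, limma FDR = 0.924), and stayed between −0.65 and −0.36 over the alternatives. Of the 5 genes with reads in all samples, Panx1 had the smallest ratio of its highest to its lowest value, 2.08, and 10.3% of 3549 tested genes of like level varied less within the groups. The groups were also separated in this direction by 4 of the 5 erythroid and 3 of the 10 oligodendrocyte-lineage markers. Among markers of other cells, Slc1a3 (astrocytes) was separated in this direction, and Gfap (astrocytes) and Eno2 (neurons) in the opposite one. The summed erythroid RPKM was 90.3, 218 and 507 in Dbx1 against 14058, 1198 and 733 in non-Dbx1 replicates 1 to 3. That of the oligodendrocyte-lineage markers was 39.4, 32.6 and 78.5 against 595, 73.4 and 81.8. Dbx1 replicate 3, with the least Panx1, thus had the most of both in its group. Non-Dbx1 replicate 3, with the most Panx1, had the least erythroid RNA of its group. The part of RNA from these cells in the Panx1 difference was not tested.

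Panx2, a pannexin enriched in the nervous system, lies on chromosome 15 from 89059734 to 89073567. RPKM of Panx2 was 6.14, 3.92 and 9.20 in the Dbx1 samples against 11.002, 7.02 and 8.73 in the non-Dbx1 samples, with 179 to 499 reads. The groups overlapped through Dbx1 replicate 3. The means were 6.42 ± 2.65 and 8.92 ± 2.00 (SD, n = 3), and the L2FC was −0.46 (standard error 0.420, 95% interval −1.42 to 0.50, limma FDR = 0.951).

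**Figure D3:**
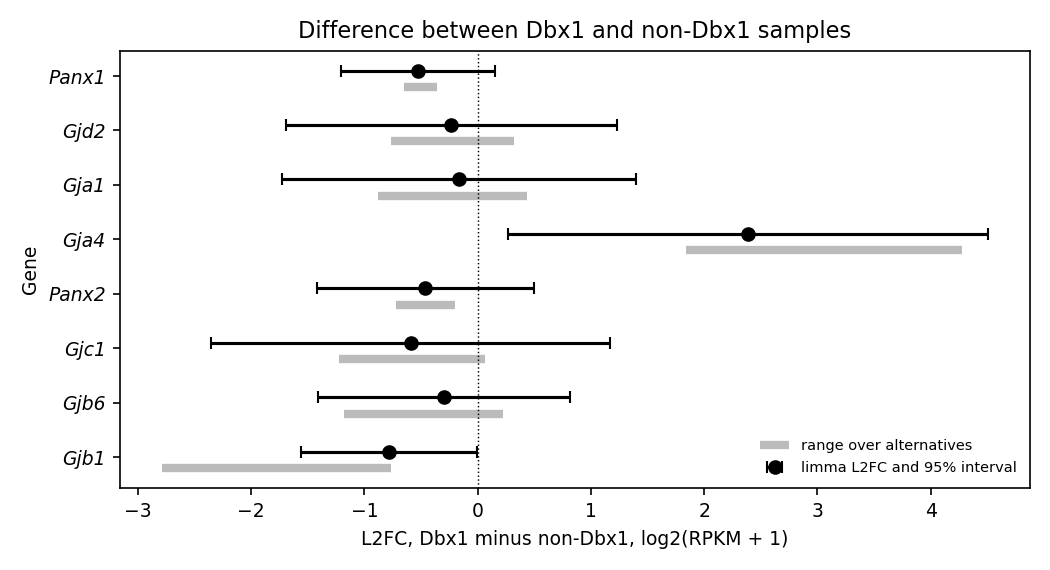
L2FC of the 8 tested genes (x axis, log2 scale, Dbx1 minus non-Dbx1). Points and whiskers give the limma estimate with its 95% interval, which is not adjusted for the number of genes, and grey bars the range over the alternatives, each on its own log2 scale. Gja4 was the only gene with a positive L2FC, and the grey bars of Gjd2, Gja1, Gjc1 and Gjb6 crossed 0.

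RPKM is scaled by length, so the genes can be ordered by level. By mean over the 6 samples the order was Panx1 at 16.1, Gjd2 at 9.47, Gja1 at 8.07, Gja4 at 7.74, Panx2 at 7.67, Gjc1 at 1.54, Gjb6 at 0.629, Gjb1 at 0.428 and Gjb2 at 0.128 RPKM. Panx1 had the highest value of the 9 genes in 4 samples, Gja4 in Dbx1 replicate 1 and Gjd2 in Dbx1 replicate 3. Mean Panx1 was exceeded by 11.2% of the 27067 names with reads, and mean Gjb2 by 78.0%. The median of the mean RPKM over those names was 1.09.

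Neighbours in this order were compared within samples by exact sign-change tests of log2(RPKM + 1), 8 pairs in all. None differed at an adjusted p of 0.05. A pair on its own could not have passed, because even the smallest exact p of 6 samples adjusts to 0.25. The lack of a call is therefore no sign of equal levels. The largest separation was between Panx2 and Gjc1, with Panx2 higher in 6 of 6 samples by 2.07 ± 1.17 on the log2 scale (SD, n = 6, exact p = 0.031, the smallest that 6 samples allow, and 0.25 adjusted over the 8 pairs). Panx1 was above Gjd2 in 5 of 6 samples (exact p = 0.094, adjusted p = 0.38), and the order among Gjd2, Gja1, Gja4 and Panx2 was not resolved (exact p of 0.34 to 0.69). As deposited, the lowest of Panx1, Gjd2, Gja1 and Panx2 was above the highest of Gjc1, Gjb6, Gjb1 and Gjb2 in all 6 samples. These sets were drawn from the same values, and Gja4 was left out of them although its mean was above that of Panx2. With Gja4 in the upper set, non-Dbx1 replicates 1 and 2 would not be separated. Gja4 was 0.0918 and 0.0694 RPKM there, against 4.98 for Gjc1 in replicate 1 and 0.479 for Gjb1 in replicate 2.

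The order rests in part on the exon length used for each gene. The length that gives whole reads was 3105 bases for Gja1 and 6060 bases for Panx2, whereas the merged exons of GENCODE vM21 span 10257 and 3599 bases. Dividing the recovered reads by the GENCODE lengths lowered mean Gja1 from 8.07 to 2.44. It raised mean Panx2 from 7.67 to 12.9 and mean Panx1 from 16.1 to 20.7. The reads were those counted on the authors' exons and were not recounted. Each shift therefore follows from the lengths alone and is not a level measured on the GENCODE exons. Panx2 then stood next to Panx1, and Gja1 was the fifth. The separation of Panx1, Gjd2, Gja1 and Panx2 from the lower 4, again without Gja4, held in 3 of the 6 samples. Gjd2, Gja4, Gjb1 and Gjb2 had the same length in both and did not move. Where the GENCODE length gave no whole reads, the smallest whole numbers that fit were taken, and the recovered reads sum to 99.1% to 99.2% of the reads of each sample. For a single gene they can be too small by a whole factor, in which case its length would be too short and its GENCODE-scaled level too low by that factor. Comparisons of 1 gene between samples do not depend on this length, apart from the pseudocount.

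**Figure D4:**
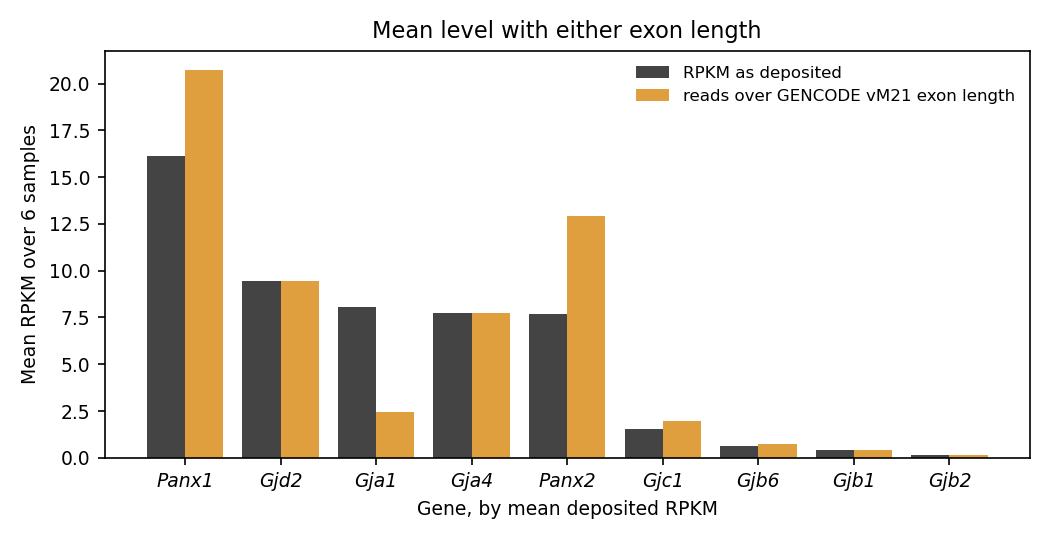
Mean RPKM over the 6 samples for each gene, as deposited (dark bars) and with the recovered reads divided by the merged exon length of GENCODE vM21 (orange bars). Gja1 fell from 8.07 to 2.44 and Panx2 rose from 7.67 to 12.9. The reads were not recounted on the GENCODE exons.

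Summed over the 2 pannexins, RPKM was 17.7 to 21.7 in the Dbx1 samples against 23.4 to 31.3 in the non-Dbx1 samples. Summed over the 7 connexins, it was 33.0, 16.4 and 38.0 in the Dbx1 samples against 44.6, 7.05 and 29.0 in the non-Dbx1 samples. Gja4, Gjd2 and Gja1 together made up most of the connexin sum in every sample, but the leading connexin changed. It was Gja4 in Dbx1 replicates 1 and 2 and non-Dbx1 replicate 3, and Gjd2 in the other 3 samples. Gja4 was 61.2% of the connexin sum in Dbx1 replicate 1 and 0.206% in non-Dbx1 replicate 1.

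The genes also differ in structure and could be told apart by short reads. Of the 7 connexins, 6 carry the whole coding sequence in 1 exon in GENCODE vM21, as is usual for connexins. Gjd2 has 2 coding exons, with 92.6% of the coding sequence in the larger, while Panx1 has 5 and Panx2 has 3. The connexins measure 226 (Gjb2) to 396 (Gjc1) residues, and the pannexins 426 and 677. No stretch of 35 bases, the shortest kind of read in the libraries, was shared between transcripts of any pair of the 9 genes, and at most 0.982% of the stretches of one (Gja1) occurred in transcripts of another gene. Reads were counted without strand, and 57 exon bases of Gjd2 (1.98%) overlap A530058N18Rik.

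Of 13 other connexin and pannexin genes, 5 had no reads in any sample and none had reads in all 6. Only Gjc3 and Gjd3 passed the filter, and 0 of these 2 had an FDR under 0.1 by limma or an unadjusted p under 0.05. Gjc3, the highest by mean, was 1.67, 0.232 and 0.0313 RPKM in Dbx1 against 17.7, 0 and 0.0462 in the non-Dbx1 samples.

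Of 8 genes for scaffolds and regulators of gap junctions, 5 had reads in all 6 samples, 7 were tested and 0 had an FDR under 0.1 by limma or an unadjusted p under 0.05, with L2FC above 0 for 4 and below 0 for 3. Dbn1 (drebrin, an actin-binding protein that also binds Cx43) was the highest by mean, at 25.9, 16.97 and 16.9 RPKM in Dbx1 against 26.3, 32.4 and 25.7 in the non-Dbx1 samples. Tjp1, the ZO-1 scaffold that binds the tail of Cx36, was between 0.421 and 1.54 RPKM in all 6 samples, and was singled out after its values were seen.

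Among 8 genes of other large-pore channels, the ATP-release channel genes Calhm1 and Calhm3 and the volume-regulated channel subunit Lrrc8e had no reads. Of the 4 tested, 0 had an FDR under 0.1 by limma or an unadjusted p under 0.05. Lrrc8b, a subunit of volume-regulated anion channels, was the highest by mean and the only one whose groups did not overlap, at 12.6, 13.96 and 15.7 RPKM in Dbx1 against 8.97, 6.69 and 10.3 in the non-Dbx1 samples. The limma fit gave it an L2FC of 0.66 (standard error 0.320, FDR = 0.912). Groups did not overlap for 10.6% of all tested genes, with the Dbx1 samples higher for 5.35%. All 4 genes of enzymes that break down extracellular ATP and its products (Entpd1, Entpd2, Entpd3 and Nt5e) were low, with a summed RPKM of 0.219 to 3.44 per sample, and 0 of the 3 tested had an FDR under 0.1 by limma or an unadjusted p under 0.05. The highest by mean was Entpd2, at 1.25, 1.29 and 0 in the Dbx1 samples against 0 in all non-Dbx1 samples.

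Among 13909 other genes with a mean RPKM of at least 1, the ones whose mean-centred log2(RPKM + 1) lay closest to Gjd2 over the 6 samples were A530017D24Rik, Adat3 and Erlin2, at root mean square distances of 0.149, 0.173 and 0.173. The closest to Panx1 were RP23-114B10.3, Eef1d and Pgbd5, at 0.0552, 0.0688 and 0.0801. With 6 samples and this many genes, some close matches are to be found for any gene, and these names are a description only.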

How the data were processed

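The 6 samples were analysed (postnatal day 2; 3 Dbx1, 3 non-Dbx1), grouped by the cell type label. The authors made complementary DNA, aligned reads to mm10 (GRCm38) with Tophat2, counted them per gene name without strand with HTSeq, and deposited RPKM computed with Ensembl exon lengths, not scaled between samples. Versions are not given in the sources used here. Whole reads were recovered from the deposited RPKM for all but 6 of 27067 genes, with the GENCODE vM21 exon length for 9685 and otherwise as the smallest whole numbers, of which the true number can be a multiple. Floors are 3 reads and cover counting error only.

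Log2(RPKM + 1) was tested with limma 3.58.1 (lmFit, eBayes with trend; R 4.3.3), two-sided, Benjamini-Hochberg. The authors used DESeq2 on counts, which are not used here. Exact permutation tests were two-sided. The rest used numpy 2.4.6, scipy 1.17.1, pandas 2.3.3 and matplotlib 3.10.9 under Python 3.11.15. The limma step was tested on simulated data. Positions and lengths came from GENCODE vM21. The afadin gene, listed as Mllt4, was found as Afdn.

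All 9 genes are named, and of each other list the genes with FDR under 0.1, the highest by mean and those whose groups did not overlap. The members and lists were chosen with earlier results of these data known. Alternatives were a pseudocount of 0.1, 2 other filters, size factors, quantile normalization, no trend, voom, the replicate number as a block, and each sample left out. Some genes of the lists count in the totals but are not reported here by name.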

Additional observations from a re-analysis of the deposited data

How the results depend on the processing

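Over the whole table, limma called 1 gene at an FDR of 0.1. The count was 3 without the trend and 0 with a pseudocount of 0.1, with all genes above 0 in at least 1 sample, with voom on recovered reads, with recovered reads scaled to depth alone (chosen after seeing the data) and with the replicate block, and 0 to 1 with a sample left out. The genes tested among the 9 stayed above an FDR of 0.1 under all of the 15 alternatives of the fit. Those with an unadjusted p under 0.05 numbered 2, and 1 with all genes above 0 in at least 1 sample, with a minimum RPKM of 1 in 3 samples, without the trend, with voom, with reads scaled to depth alone and with the replicate block, and 0 to 1 with a sample left out. The replicate numbers gave no pairing, as the 6 mice differed and deviations of same-numbered samples correlated by −0.11, 0.025 and −0.052. With a sample left out, L2FC ranged from −0.88 to 0.43 for Gja1 (above 0 without non-Dbx1 replicate 1, and 0.18 without Dbx1 replicate 2), from −0.76 to 0.32 for Gjd2 (above 0 without non-Dbx1 replicate 1, and 0.078 without Dbx1 replicate 2), from −1.23 to 0.061 for Gjc1 (above 0 without non-Dbx1 replicate 1) and from −0.65 to 0.22 for Gjb6 (above 0 without non-Dbx1 replicate 3); the cause was not tested. Gjb1 could not be fitted without any one of the non-Dbx1 samples, with the RPKM minimum of 1 or with voom, since it then failed the filter. Reads were above 0 in all 6 samples for 5 genes, and RPKM of at least 0.1 or at least 3 reads for 4, Gja4 being the one lost. No pair of neighbouring levels passed under any alternative, and 5 samples allow no p under 0.0625.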
